A study of Mus musculus with 36 samples.

Results

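Of the YAP and TAZ pathway, 9 genes were examined: the target genes Ankrd1, Ccn1 (also Cyr61), Ccn2 (also Ctgf), Amotl2, Lats2 and Axl, and the pathway genes Yap1, Wwtr1 and Tead1. The members were taken by symbol from a count table of 29996 RefSeq transcript rows, and where a gene had several rows the row with the highest mean count over all libraries was used. In all, 5 of the 9 members had enough counts to be tested. The table holds 36 kidney RNA-Seq libraries of C57BL/6 mice from 2 models of polycystic kidney disease. In the Pkd1 model, Pkd1f/f mice (WT below) were compared with Pkd1f/f:HoxB7-Cre mice (KO), and in the Pkd2 model Pkd2f/f mice (WT) were compared with Pkd2f/f:HoxB7-Cre mice (KO). Each genotype was collected at postnatal day 1 (P1), 3 (P3) and 7 (P7), with 3 libraries per group. WT mice carried the floxed alleles without Cre, and the HoxB7 promoter drives Cre in the collecting duct, so each KO library is kidney tissue in which cells without Cre kept the gene. In whole kidney, fewer cells of a type and less RNA per cell cannot be told apart.

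YAP and TAZ, the products of Yap1 and Wwtr1, are transcriptional coactivators held in check by the Hippo pathway, in which the Mst kinases activate the Lats kinases and these phosphorylate YAP and TAZ and keep them out of the nucleus. In the nucleus they bind DNA through the TEAD factors, of which Tead1 is one, and their activity responds to cell shape, stretch and the actin cytoskeleton. Ccn1 and Ccn2 encode secreted matricellular proteins, and Ankrd1 encodes an ankyrin repeat protein of muscle and stressed cells. Amotl2 and Lats2 are targets whose products act back on the pathway as inhibitors, and Axl encodes a receptor tyrosine kinase. Renal tubules are stretched when cysts grow, and the collecting duct is the segment from which Cre was driven here.

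The proximal promoters are shown for the target genes with counts, of which Ankrd1, Ccn1 and Amotl2 were called higher in KO kidneys of at least 1 model at P7 and Lats2 in neither, since TEAD factors recognise the motif CATTCC, or GGAATG on the other strand. Each sequence runs 5′ to 3′ on the gene's own strand from 250 bases before to 50 bases after the RefSeq start (GRCm38.p6), in lower case with matches to the motif in capitals.
Ankrd1, chr19:36119795-36120094, minus strand: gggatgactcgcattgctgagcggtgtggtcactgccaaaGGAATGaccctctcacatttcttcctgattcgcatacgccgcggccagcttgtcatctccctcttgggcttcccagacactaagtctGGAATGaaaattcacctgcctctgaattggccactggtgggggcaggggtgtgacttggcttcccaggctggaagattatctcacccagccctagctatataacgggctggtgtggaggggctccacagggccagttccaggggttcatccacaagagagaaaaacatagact
Ccn1, chr3:145649936-145650235, minus strand: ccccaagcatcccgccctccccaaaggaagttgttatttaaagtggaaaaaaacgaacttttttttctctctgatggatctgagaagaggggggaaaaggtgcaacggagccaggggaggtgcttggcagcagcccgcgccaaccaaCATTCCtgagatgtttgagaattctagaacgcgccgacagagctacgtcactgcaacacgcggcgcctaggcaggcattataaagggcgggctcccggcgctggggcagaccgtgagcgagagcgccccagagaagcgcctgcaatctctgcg
Amotl2, chr9:102717554-102717853, plus strand: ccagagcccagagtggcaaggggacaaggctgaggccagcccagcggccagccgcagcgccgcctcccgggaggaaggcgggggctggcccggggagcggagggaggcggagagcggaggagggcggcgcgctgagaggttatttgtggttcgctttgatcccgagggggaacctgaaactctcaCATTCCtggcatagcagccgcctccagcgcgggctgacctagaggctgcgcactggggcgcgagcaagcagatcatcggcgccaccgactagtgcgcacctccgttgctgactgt
Lats2, chr14:57746074-57746373, minus strand: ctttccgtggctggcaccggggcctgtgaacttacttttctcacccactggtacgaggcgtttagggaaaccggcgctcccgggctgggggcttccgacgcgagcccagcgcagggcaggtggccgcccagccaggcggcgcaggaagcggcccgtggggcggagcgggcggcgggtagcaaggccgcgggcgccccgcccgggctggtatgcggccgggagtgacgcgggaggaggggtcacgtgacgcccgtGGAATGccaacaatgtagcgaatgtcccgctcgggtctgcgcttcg
The Ankrd1 window held 2 matches, which began 210 and 123 bases upstream of the start. The Ccn1 match began 103 bases upstream and the Amotl2 match 65 bases upstream. The Lats2 match lay just past the start, and the window of the second Lats2 start held none. Of the members without counts, Axl, Yap1 and Wwtr1 each had a match in their windows. Over all RefSeq promoter windows of this length, 4817 of 32851 (14.663%) held the motif. The CArG box, the motif of serum response factor, was found in no member window and in 1.629% of all windows. Ccn2 and Tead1 had no window in the table. A match of letters does not show binding.

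How the table was counted decided which members could be read. HTSeq with its default options leaves out a read that overlaps more than 1 feature, and the features here were transcripts, so a gene with overlapping isoforms keeps mainly reads that fall on bases unique to 1 of them. Ankrd1, Ccn1, Ccn2 and Amotl2 have 1 row each (NM_013468, NM_010516, NM_010217 and NM_019764) and their mean counts over 36 libraries were 126, 1906, 2291 and 3053. Lats2 has 2 rows, and the used row (NM_015771) kept 4768 of 5191 bases unique and a mean of 1394 counts. Axl has 3 rows, of which 1 has 18 unique bases and the others 0, and every row was listed at 0 in all 36 libraries. Yap1 had 7 counts in all over 56 unique bases, Tead1 had 20 over 102 unique bases, and Wwtr1 had 147 over 246 unique bases with at most 11 in a library. Levels of Axl, Yap1, Wwtr1 and Tead1 therefore could not be read from this table, and their low counts say nothing of expression in kidney. The same pattern held over the table: the median of the mean count was 156.75 for the 15732 genes with 1 row, 1.278 for the 2687 genes with 2 rows and 0.861 for the 2039 genes with 3 or more. The rule had exceptions, since 2.662% of the 5334 rows without a unique exonic base still had a mean count of at least 10. Umod, an abundant transcript of the thick ascending limb, has 2 rows and stayed at or below a normalized count of 1.06 in every library.

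**Figure D1:**
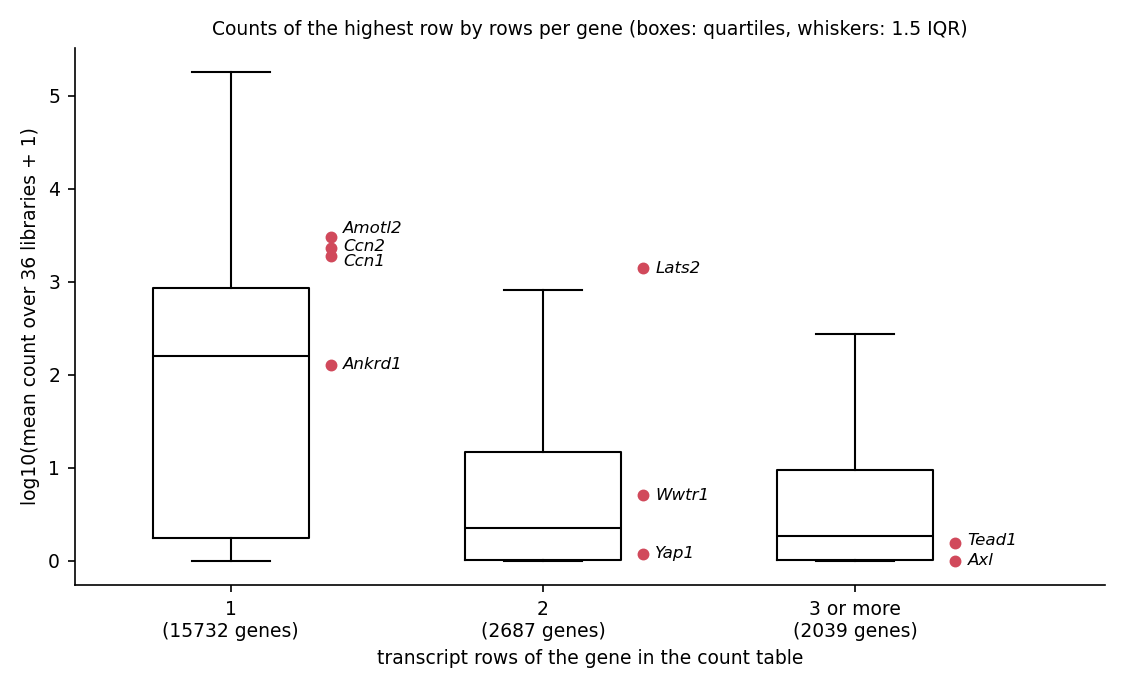
Mean count of each gene's highest row over 36 libraries, as log10 of the count plus 1, against the number of transcript rows of the gene (1, 2, or 3 or more). Boxes are quartiles over genes, whiskers reach 1.5 times the interquartile range and red points are the 9 members; Ankrd1, Ccn1, Ccn2, Amotl2 and Lats2 lie high, whereas Axl, Yap1, Wwtr1 and Tead1 lie near 0 among genes with several rows.

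Total counts ranged from 7179152 to 15850818 per library with a median of 13143336, and raw counts of the tested members ranged from 6 to 805 for Ankrd1, from 387 to 6869 for Ccn1, from 507 to 7716 for Ccn2, from 1342 to 5266 for Amotl2 and from 695 to 2079 for Lats2. At P7 the deleted gene Pkd2 was lower in the KO libraries of its model, at 3610 ± 99.2 normalized counts against 4416 ± 127 in WT (SD, n = 3). Its log2 fold change was -0.29 ± 0.05 (adjusted p = 0.0122, edgeR), beside 6.06% of all transcripts called lower. Pkd1 stood at 3134 ± 172 in Pkd1 WT and 3352 ± 403 in Pkd1 KO and did not pass. Neither deleted gene passed at P1 or P3 in its own model. Reads from exons outside the deleted part and from cells without Cre are counted in these rows, so neither gene gave a firm check of the labels. Libraries also differed in sex, as 18 held at least 3926 counts over the 4 Y-linked genes Ddx3y, Eif2s3y, Kdm5d and Uty and 18 held at most 5. In the Pkd1 model at P7, 3 of 3 KO and 0 of 3 WT libraries held Y-linked counts, so sex and genotype cannot be told apart there from those 6 libraries. In the Pkd2 model at P7, 3 of 3 KO and 2 of 3 WT libraries held them. Normalized counts below are counts scaled by TMM factors within a model, and WT and KO were compared by the quasi-likelihood test of edgeR, with p-values adjusted after Benjamini and Hochberg over every transcript tested and a threshold of 0.05. By the methods of the study, the controls were littermates of the same age. The labels do not say which libraries shared a litter or whether libraries of a group came from separate litters, so p-values measure the spread between these libraries.

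At P7 Ankrd1, Ccn1 and Ccn2 rose in KO kidneys of both models, Amotl2 rose by a smaller amount that passed the test in the Pkd2 model, and Lats2, the kinase gene, did not pass in either. Of the 5 tested members, 3 were called higher in the Pkd1 model, where 6.2% of 12527 tested transcripts were called higher, and 4 of 5 in the Pkd2 model, where 7.82% of 12633 were. The median log2 fold change of the 5 was 1.75 and 1.65, beside -0.0055 and 0.0015 over all transcripts tested. The share of all transcripts whose KO and WT libraries did not overlap at P7 is not given here. At an unadjusted p under 0.05 there were 4209 of 12527 transcripts in the Pkd1 model and 3741 of 12633 in the Pkd2 model. A lack of overlap at P7 is therefore a description below and no call.

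Ankrd1 had normalized counts of 18, 22.9 and 28.3 in the 3 Pkd1 WT libraries and 750, 675 and 339 in the 3 Pkd1 KO libraries at P7. The Pkd2 libraries had 55.2, 49.4 and 38.1 in WT and 469, 829 and 606 in KO. All KO libraries thus lay far above all WT libraries in both models. The log2 fold change was 4.67 ± 0.36 (SE, n = 3 per group) with adjusted p = 0.00106 for Pkd1 KO and 3.73 ± 0.24 for Pkd2 KO with adjusted p = 0.000315 (edgeR quasi-likelihood test).

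Ccn1, which encodes a matricellular ligand of integrins, had normalized counts of 1437, 1372 and 1312 in Pkd1 WT and 5386, 6978 and 3929 in Pkd1 KO at P7. The Pkd2 model gave 1784, 2036 and 1696 in WT and 5041, 6716 and 5547 in KO. The groups did not overlap in either model. Its log2 fold change was 1.98 ± 0.20 (adjusted p = 0.0029, edgeR) in the Pkd1 model and 1.65 ± 0.12 (adjusted p = 0.000343, edgeR) in the Pkd2 model.

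Ccn2, the connective tissue growth factor gene, had 1832, 1454 and 2250 normalized counts in Pkd1 WT and 5726, 7692 and 5250 in Pkd1 KO at P7. The Pkd2 libraries held 2224, 2415 and 1804 in WT and 5784, 7943 and 7913 in KO. The KO libraries again lay above every WT library of their model. The log2 fold changes were nearly equal, 1.75 ± 0.20 (adjusted p = 0.00512, edgeR) in the Pkd1 model and 1.75 ± 0.15 (adjusted p = 0.00062, edgeR) in the Pkd2 model.

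Amotl2, the angiomotin-like inhibitor, had 3034, 3465 and 2624 normalized counts in Pkd1 WT and 4194, 4563 and 3602 in Pkd1 KO at P7, and 3600, 3438 and 4210 in Pkd2 WT and 4376, 5421 and 5509 in Pkd2 KO. The groups did not overlap (share over all transcripts not given here), although the lowest KO library lay close to the highest WT library in both models. Its log2 fold change was 0.44 ± 0.14 with adjusted p = 0.0695 for Pkd1 KO and 0.44 ± 0.11 for Pkd2 KO with adjusted p = 0.0332 (edgeR quasi-likelihood test). DESeq2 called it in the Pkd1 model too (adjusted p = 0.0256), and leaving out 1 of 4 libraries of the Pkd2 model in turn (WT replicate 1 or 2, KO replicate 2 or 3) ended the call there, with adjusted p up to 0.123 by edgeR.

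Lats2, the kinase that phosphorylates YAP and TAZ, had 1506, 1827 and 1448 normalized counts in Pkd1 WT and 1367, 1497 and 1630 in Pkd1 KO at P7, which overlapped. Its Pkd2 libraries had 1579, 1574 and 1441 in WT and 1682, 1883 and 1659 in KO, which did not overlap (share over all transcripts not given here). The log2 fold change was -0.09 ± 0.13 with adjusted p = 0.66 for Pkd1 KO and 0.19 ± 0.07 for Pkd2 KO with adjusted p = 0.12 (edgeR). A change of the size seen for Ccn1 or Ccn2 lies many standard errors outside both values.

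**Figure D2:**
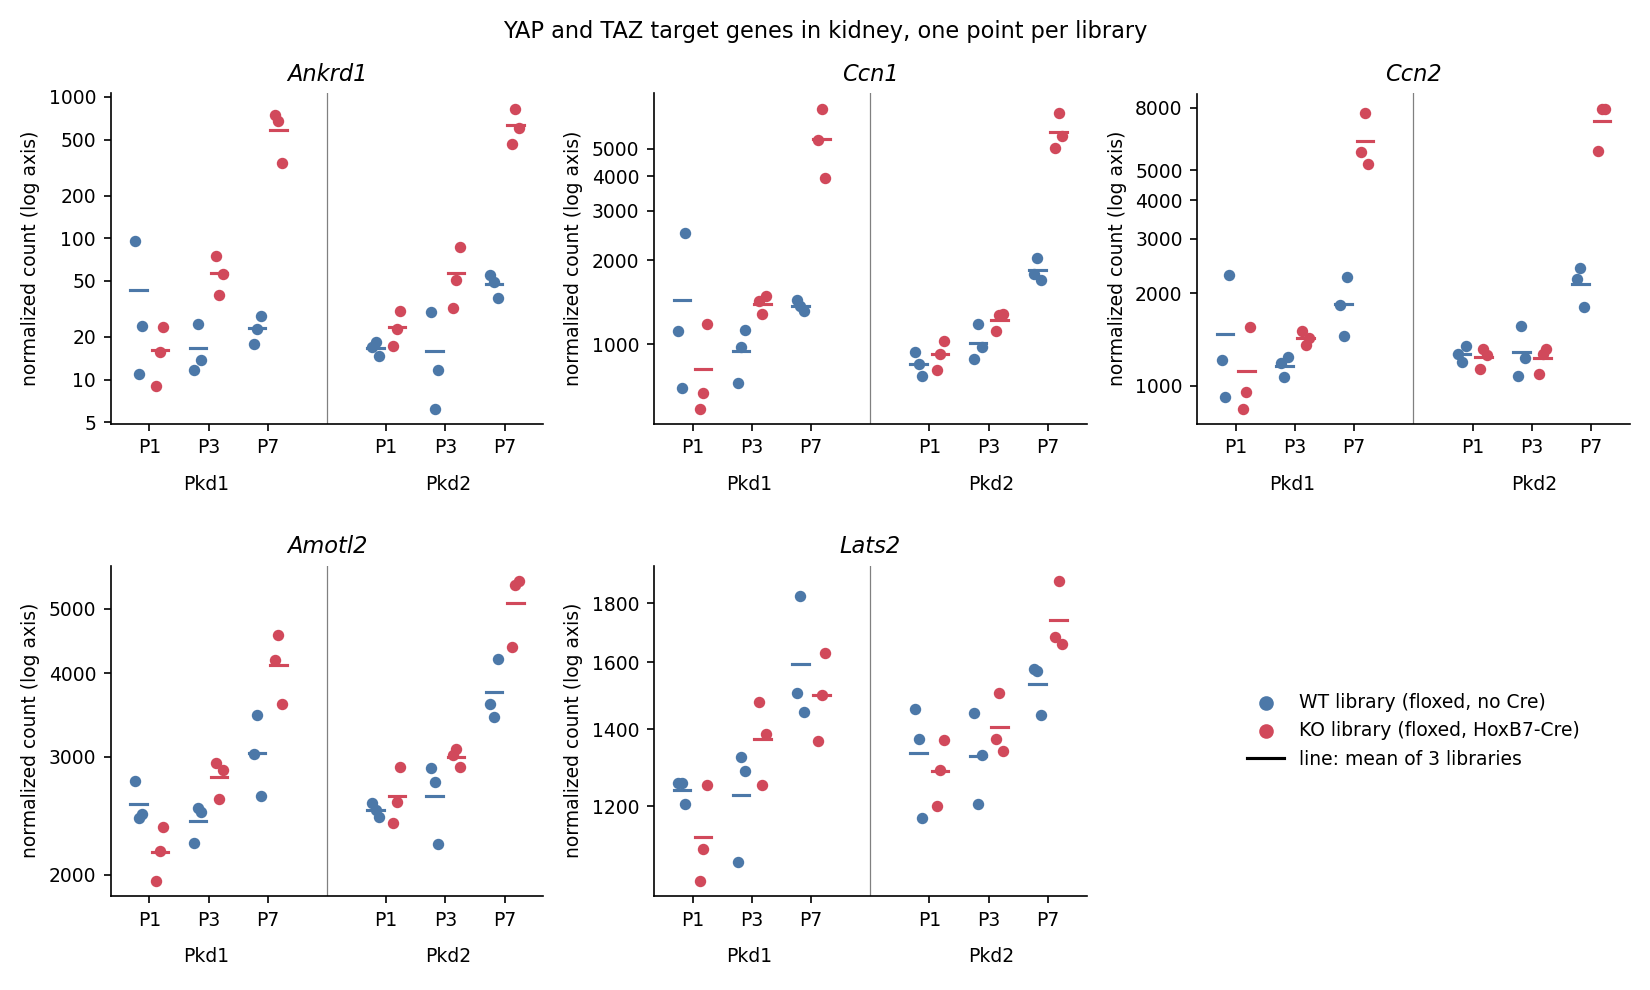
Normalized count of each tested member (log axis) in every library, by postnatal day and model, with WT in blue, KO in red and short lines for the means of 3 libraries. The KO libraries of Ankrd1, Ccn1 and Ccn2 lie above all WT libraries at P7 in both models (Ankrd1 at 339 to 829 against 18 to 55.2), whereas Lats2 stays between 1034 and 1883 throughout.

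Further fits addressed the sex imbalance at P7. For Pkd2, leaving out WT replicate 3, the 1 library of the 6 without Y-linked counts, compared 3 KO with 2 WT libraries of 1 sex, and 4 members were still called with log2 fold changes of 3.60 for Ankrd1, 1.59 for Ccn1, 1.64 for Ccn2 and 0.54 for Amotl2. The number of all transcripts called in that fit is not given here. In the Pkd1 model no comparison of libraries of 1 sex exists at P7. A fit of the 18 Pkd1 libraries with presence of Y-linked counts as a term called 0 of 5 members at P7, with log2 fold changes of 2.23 for Ankrd1 (adjusted p = 0.407), 0.62 for Ccn1 (adjusted p = 0.621), 0.83 for Ccn2 (adjusted p = 0.409) and 0.33 for Amotl2 (adjusted p = 0.476, edgeR). Over all transcripts that fit called 6 of 12527, so 0 of 5 is no result particular to the members. The term for Y-linked counts rests on the 3 WT libraries of P1 alone, the 1 group of that model with both sexes. There replicates 1 and 3 held Y-linked counts and replicate 2 did not, and those 2 libraries were the higher ones for Ankrd1, Ccn1 and Ccn2. Without any sex term the Pkd1 calls of Ankrd1, Ccn1 and Ccn2 held in all 6 fits that omitted 1 library.

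Over both models together the KO effect at P7 was called higher for 4 of 5 members, beside 16.5% of 12343 transcripts called higher. The averaged log2 fold change was 4.20 ± 0.24 for Ankrd1 (adjusted p = 1.09e-06), 1.81 ± 0.12 for Ccn1 (adjusted p = 3.91e-06), 1.75 ± 0.14 for Ccn2 (adjusted p = 9.94e-06) and 0.44 ± 0.09 for Amotl2 (adjusted p = 0.00388, edgeR, 12 libraries). With presence of Y-linked counts as a term in this fit, the same 4 genes were called, but among the 12 libraries that term rests on Pkd2 WT replicate 3 alone, so it is no separate control for sex. In either direction, 939 of 12343 transcripts were called with the term. The values were then 3.92 for Ankrd1, 1.72 for Ccn1, 1.53 for Ccn2 and 0.63 for Amotl2 on the log2 scale. Without the term, Lats2 gave 0.05 ± 0.07 (adjusted p = 0.646), and with it -0.02.

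The Pkd1 effect minus the Pkd2 effect at P7 was 0.95 ± 0.45 for Ankrd1 (adjusted p = 0.302), 0.35 ± 0.24 for Ccn1, 0.02 ± 0.26 for Ccn2, 0.01 ± 0.18 for Amotl2 and -0.26 ± 0.14 for Lats2 on the log2 scale. None of the 5 passed edgeR's quasi-likelihood test or DESeq2 for a difference between models, and at an unadjusted p under 0.05 there were also 0. Over all transcripts 0.0% were called (0 of 12343, with 2130 at an unadjusted p under 0.05). At P1 and P3 none passed either, and DESeq2 called 0. At an unadjusted p under 0.05 there were 2 and 0 members, beside 390 and 1259 of 12343 transcripts. The largest of the differences at P7, that of Ankrd1, was about 2 of its standard errors.

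**Figure D3:**
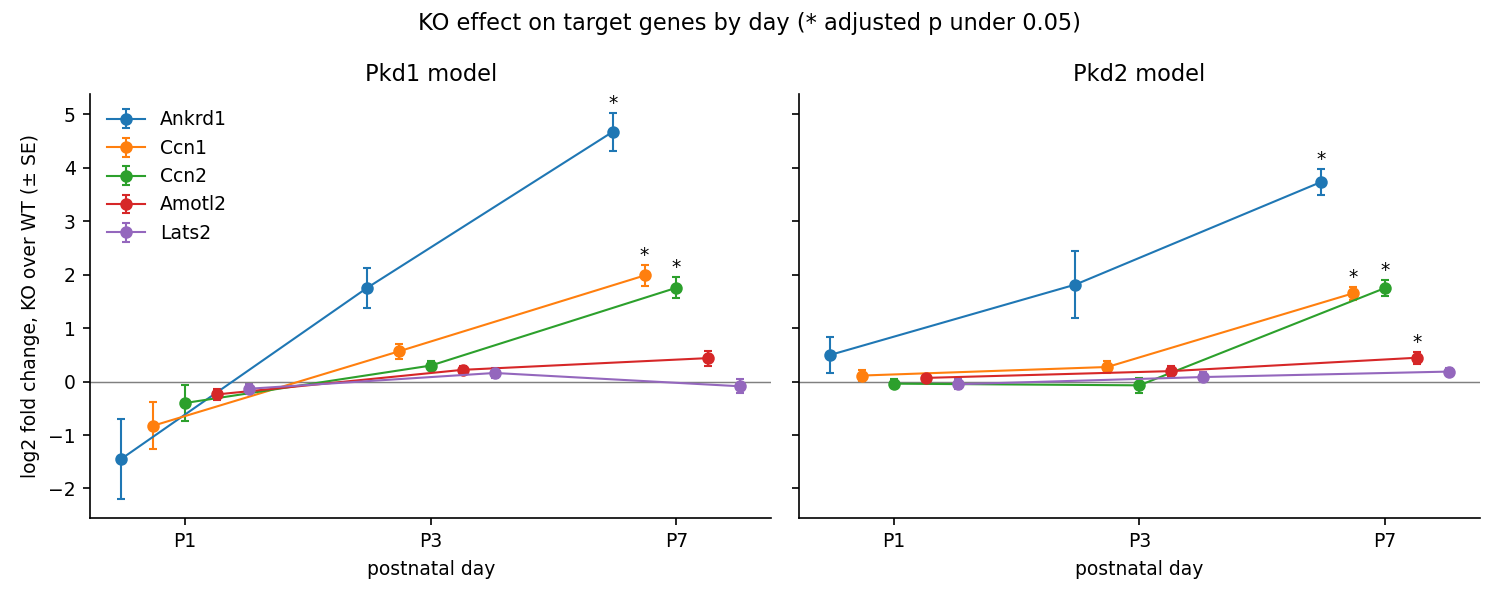
Log2 fold change of KO over WT with its standard error for each tested member at P1, P3 and P7, in the Pkd1 model on the left and the Pkd2 model on the right; stars mark adjusted p under 0.05. Ankrd1 moves from -1.45 to 4.67 in the Pkd1 model and from 0.49 to 3.73 in the Pkd2 model, and Lats2 stays near 0.

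At P1 no member was called in either model, where 0.0% of transcripts were called in both. The members of the Pkd1 model leaned lower in KO, with log2 fold changes of -1.45 ± 0.74 for Ankrd1, -0.83 ± 0.44 for Ccn1, -0.40 ± 0.34 for Ccn2, -0.24 ± 0.10 for Amotl2 and -0.13 ± 0.10 for Lats2. Of these, Amotl2 alone had an unadjusted p under 0.05, beside 161 of 12527 transcripts. Sex was uneven here too, since 2 of 3 WT and 0 of 3 KO libraries of the Pkd1 model held Y-linked counts. The WT libraries differed widely among themselves, and the 2 with Y-linked counts, replicates 1 and 3, were the higher ones for Ankrd1, Ccn1 and Ccn2. Ankrd1 had 95.2, 10.9 and 23.8 normalized counts in Pkd1 WT and 8.96, 15.8 and 23.7 in Pkd1 KO, and Ccn1 had 1114, 700 and 2496 in WT and 588, 668 and 1187 in KO. WT replicate 3 with its high Ccn1 also held 559 normalized counts of Fos and 350 of Fosb, where the other WT libraries held 63.1 and 74.2 of Fos and 4.59 and 7.24 of Fosb. At P1 in the Pkd2 model the 5 log2 fold changes lay between -0.05 and 0.49. There no member had an unadjusted p under 0.05, beside 708 of 12633 transcripts, and none was called by DESeq2.

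At P3 Ankrd1 was the member that stood out. It had 11.6, 24.6 and 13.8 normalized counts in Pkd1 WT and 74.3, 39.3 and 55.9 in Pkd1 KO, and 29.8, 6.2 and 11.7 in Pkd2 WT and 32.1, 51.0 and 86.9 in Pkd2 KO. KO libraries lay above WT libraries in both models, although the lowest Pkd2 KO library (32.1) was just above the highest Pkd2 WT library (29.8). The log2 fold change was 1.75 ± 0.37 (adjusted p = 0.164) in the Pkd1 model and 1.81 ± 0.63 (adjusted p = 0.931) in the Pkd2 model by edgeR, neither of which passed.

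The other members were closer at P3. Ccn1 had 730, 975 and 1128 normalized counts in Pkd1 WT against 1428, 1281 and 1485 in Pkd1 KO (log2 fold change 0.56 ± 0.14, adjusted p = 0.185, edgeR). Pkd2 libraries had 884, 1184 and 977 against 1115, 1274 and 1286, with 1 WT library inside the KO range. Ccn2 gave 0.30 ± 0.08 in the Pkd1 and -0.07 ± 0.14 in the Pkd2 model, and Amotl2 gave 0.22 ± 0.08 and 0.19 ± 0.10. All 3 KO libraries lay above all 3 WT libraries for 4 of 5 members in the Pkd1 model, beside 10.3% of all transcripts, and for 2 of 5 (Ankrd1 and Amotl2) in the Pkd2 model, beside 4.61%.

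By edgeR's quasi-likelihood test 0 of 5 members were called at P3 in either model or over both. Of all transcripts, 0.00798% (1 of 12527) were called for Pkd1, 0.0% for Pkd2 and 5 of 12343 over both. Over both models 3 members had an unadjusted p under 0.05, beside 1020 of 12343 transcripts, and DESeq2 called 2. In the Pkd1 model 4 members had an unadjusted p under 0.05, beside 1767 of 12527 transcripts. DESeq2 and edgeR's exact test each called Ankrd1 and Ccn1 (adjusted p = 0.00911 and 0.0107 by DESeq2). The number of all transcripts called by these 2 tests is not given here. In the Pkd2 model Ankrd1 had an unadjusted p of 0.0241 by edgeR, where 563 of 12633 transcripts had one under 0.05, and DESeq2 called 0 members. All 6 Pkd1 libraries of P3 held Y-linked counts, so the sexes were even there, whereas in the Pkd2 model 1 of 3 WT and 0 of 3 KO libraries held them.

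The change of the KO effect with age was tested directly in fits of the 18 libraries of each model. Between P1 and P7 the effect rose for 4 of 5 members in the Pkd1 model, beside 3.66% of transcripts, and for 3 of 5 in the Pkd2 model, beside 1.12%. The rise on the log2 scale was 6.13 ± 0.81 for Ankrd1 (adjusted p = 0.000812), 2.81 ± 0.49 for Ccn1 (adjusted p = 0.00451), 2.16 ± 0.39 for Ccn2 (adjusted p = 0.00508) and 0.68 ± 0.16 for Amotl2 (adjusted p = 0.0181) in the Pkd1 model (edgeR). Part of each Pkd1 value is the negative difference at P1 described above, and Y-linked counts were unbalanced in opposite directions at P1 (WT 2 of 3, KO 0 of 3) and P7 (WT 0 of 3, KO 3 of 3). In the Pkd2 model, where P1 was near 0, the rise was 3.24 ± 0.61 for Ankrd1 (adjusted p = 0.0147), 1.54 ± 0.18 for Ccn1 (adjusted p = 0.000834) and 1.79 ± 0.21 for Ccn2 (adjusted p = 0.000834, edgeR). With a sex term 0 of 5 passed in the Pkd1 model and the same 3 passed in the Pkd2 model. The number of all transcripts called with that term is not given here. With the replicate number as a block, Ankrd1 no longer passed in the Pkd2 model (3.24, adjusted p = 0.0827).

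The later interval was tested in the same fits. From P3 to P7 the KO effect rose for 2 of 5 members in each model, beside 1.91% of transcripts for Pkd1 and 1.88% for Pkd2. Those were Ankrd1 (2.92 ± 0.79) and Ccn2 (1.46 ± 0.39) in the Pkd1 model, and Ccn1 (1.38 ± 0.18) and Ccn2 (1.82 ± 0.21) in the Pkd2 model. The Pkd1 count was fragile: it fell to 0 with a sex term, and also when any 1 of 10 of the 12 libraries was left out, the exceptions being WT replicate 3 and KO replicate 3 of P7. The numbers of all transcripts called in those fits are not given here. From P1 to P3 no member passed edgeR's test in either model, and DESeq2 called 1 (Ankrd1) and 0. At an unadjusted p under 0.05 there were 3 and 0 members, beside 430 of 12527 and 672 of 12633 transcripts.

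Member levels in WT kidneys also changed with age. In Pkd2 WT the levels of Ankrd1 (1.5 ± 0.45, adjusted p = 0.0206), Ccn1 (1.11 ± 0.13, adjusted p = 3.12e-05), Ccn2 (0.76 ± 0.15, adjusted p = 0.00129) and Amotl2 (0.58 ± 0.11, adjusted p = 0.000927) rose from P1 to P7 on the log2 scale (edgeR), 4 of 5 members beside 13.1% of transcripts called higher. In Pkd1 WT 1 of 5 passed, beside 12.6%, namely Lats2 at 0.36 ± 0.11 (adjusted p = 0.0231, edgeR), and 0 of 5 passed without P7 WT replicate 2. Ankrd1 gave -0.96 ± 0.57 and Ccn1 -0.07 ± 0.34 there, with the scattered P1 libraries as the base. From P3 to P7, Amotl2 rose in WT of both models (0.34 ± 0.11, adjusted p = 0.048 in Pkd1 WT and 0.52 ± 0.11, adjusted p = 0.00252 in Pkd2 WT, edgeR). Over that interval 2 of 5 members passed in Pkd1 WT (Amotl2 and Lats2), beside 6.91% of transcripts called higher, and 4 of 5 in Pkd2 WT (all but Lats2), beside 12.4%. The Pkd1 count ranged from 0 to 2 when 1 library was left out, with 0 without P3 replicate 1 or 3 or P7 replicate 2. The difference between WT groups of the 2 models was not tested. The Pkd1 WT libraries of P7 lacked Y-linked counts and 2 of 3 at P1 held them. The part of sex in these values was not tested apart from the term above, which left 0 of 5 called, with the number of all transcripts called not given here.

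Levels could be compared between members only per length, as normalized counts per kilobase of unique exonic sequence. At P7 in Pkd1 WT, Ccn2 stood at 769 ± 166 per kilobase (SD, n = 3), Amotl2 at 703 ± 97.2, Ccn1 at 681 ± 31.0, Lats2 at 334 ± 42.9 and Ankrd1 at 11.4 ± 2.56. The first 3 did not differ beyond their spread. In Pkd1 KO the levels were 2690 ± 755 for Ccn1, 2595 ± 540 for Ccn2, 952 ± 112 for Amotl2, 314 ± 27.5 for Lats2 and 291 ± 108 for Ankrd1, so that Ankrd1 came within the range of Lats2. Levels in the Pkd2 model were Ccn1 911 ± 87.3, Ccn2 896 ± 130, Amotl2 866 ± 94.1, Lats2 321 ± 16.4 and Ankrd1 23.5 ± 4.32 per kilobase in WT, and Ccn2 3008 ± 516, Ccn1 2857 ± 426, Amotl2 1179 ± 146, Lats2 365 ± 25.8 and Ankrd1 314 ± 90.0 in KO.

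The pattern over all 36 libraries tied the matricellular genes closest. As a description over libraries that share groups and normalization, Pearson's r of log2 normalized counts (pseudocount 1) between Ccn1 and Ccn2 was 0.972, and each was the gene most like the other among the genes tested. Jun (0.937) and Rhob (0.934) came next for Ccn1, and Igfbp3 (0.94) and Mxra7 (0.937) for Ccn2. Ankrd1 was most like Ajuba (0.93), Ttll6 (0.93) and Gdf15 (0.919). Amotl2 was most like Rhob (0.917) and Stc2 (0.912), and Lats2 most like Sfrp1 (0.854), Ccdc80 (0.846) and Tsc22d2 (0.84). With the other members Lats2 reached 0.644 to 0.79, and the remaining pairs 0.868 to 0.972. The KO libraries of P7 hold the highest levels of Ankrd1, Ccn1 and Ccn2 and enter each of these values.

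Of a further list of 16 published YAP and TAZ targets, 11 had enough counts to be tested. At P7, 5 were called higher and 0 lower in the Pkd1 model, beside 6.2% and 7.54% of all transcripts, and 6 higher and 0 lower in the Pkd2 model, beside 7.82% and 6.06%, with a median log2 fold change of -0.13 and 0.56 beside -0.0055 and 0.0015 over all transcripts. The 5 called in both models were Igfbp3, which encodes an insulin-like growth factor binding protein, Gadd45b of the stress response, the growth factor gene Tgfb2, the coagulation initiator F3, and Fjx1, a homologue of a fly gene of the Fat and Dachsous branch of the pathway. Igfbp3 was the most abundant, with 8803, 6948 and 11686 normalized counts in Pkd1 WT against 27551, 25179 and 20877 in Pkd1 KO, and 8947, 12076 and 6869 in Pkd2 WT against 22896, 21457 and 23792 in Pkd2 KO (log2 fold change 1.42 ± 0.20 and 1.29 ± 0.18, adjusted p = 0.00882 and 0.00451, edgeR). Gadd45b changed by 1.97 ± 0.22 and 1.29 ± 0.19, F3 by 1.45 ± 0.23 and 1.21 ± 0.11, Fjx1 by 1.09 ± 0.15 and 1.02 ± 0.09, and Tgfb2 by 0.84 ± 0.15 and 1.14 ± 0.12 on the log2 scale. Their adjusted p ranged from 0.0049 to 0.0162 in the Pkd1 model and from 0.000737 to 0.00555 in the Pkd2 model. Ccdc80 was called in the Pkd2 model alone (0.56 ± 0.12, adjusted p = 0.0239) and had -0.39 ± 0.16 in the Pkd1 model (adjusted p = 0.138, edgeR). A difference between models at P7 was called for 0 of the 12343 transcripts tested in both, Ccdc80 among them. The others gave values between -0.58 and 0.03. Over both models 5 were called higher and 2 lower, beside 16.5% and 16.6% of all transcripts. Those lower were Arhgef17 (-0.23 ± 0.06, adjusted p = 0.0136) and Ptpn14 (-0.34 ± 0.12, adjusted p = 0.0434, edgeR), which is also on the Hippo list. None of the 11 was called at P1 or P3 in either model.

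Of a list of 26 Hippo pathway genes, 25 were tested in the Pkd1 model, where 2 were called higher and 2 lower at P7, beside 6.2% and 7.54% of all transcripts, and 23 in the Pkd2 model, where 2 were called higher and 0 lower, beside 7.82% and 6.06%. The list was thus called about as often as transcripts at large. The median log2 fold change was -0.25 and 0.01. Called in both models were Vgll3, a TEAD cofactor, and Ajuba, a LIM protein that binds Lats kinases. Vgll3 had 62.8, 58.0 and 93.3 normalized counts in Pkd1 WT against 208, 207 and 242 in Pkd1 KO, and 52.2, 72.1 and 80.5 in Pkd2 WT against 256, 247 and 193 in Pkd2 KO (1.62 ± 0.24 and 1.76 ± 0.20, adjusted p = 0.00996 and 0.00194, edgeR). Ajuba changed by 0.53 ± 0.10 and 0.42 ± 0.09 (adjusted p = 0.017 and 0.0185). Mob1a, which encodes a Lats coactivator, fell by 1.52 ± 0.37 in the Pkd1 model (adjusted p = 0.0334, edgeR). Its scattered WT libraries there held 589, 822 and 314 normalized counts against 214, 130 and 258 in KO. It had 0.16 ± 0.09 in the Pkd2 model, and a difference between models was called for 0 of 12343 transcripts. Vgll4, which encodes a competitor of YAP for TEAD, had -1.19 ± 0.34 for Pkd1 KO (adjusted p = 0.0534, edgeR), where WT replicate 3 (255) lay below KO replicate 3 (281). It had -0.30 ± 0.09 for Pkd2 KO (adjusted p = 0.0616) and -0.74 ± 0.19 over both models (adjusted p = 0.0122, edgeR). Limd1, another LIM protein gene, was the remaining call, lower by a log2 fold change of -0.36 ± 0.10 in the Pkd1 model. Over both models, of 23 tested, 3 were called higher and 7 lower, beside 16.5% and 16.6% of all transcripts. None was called at P1 or P3 in either model.

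**Figure D4:**
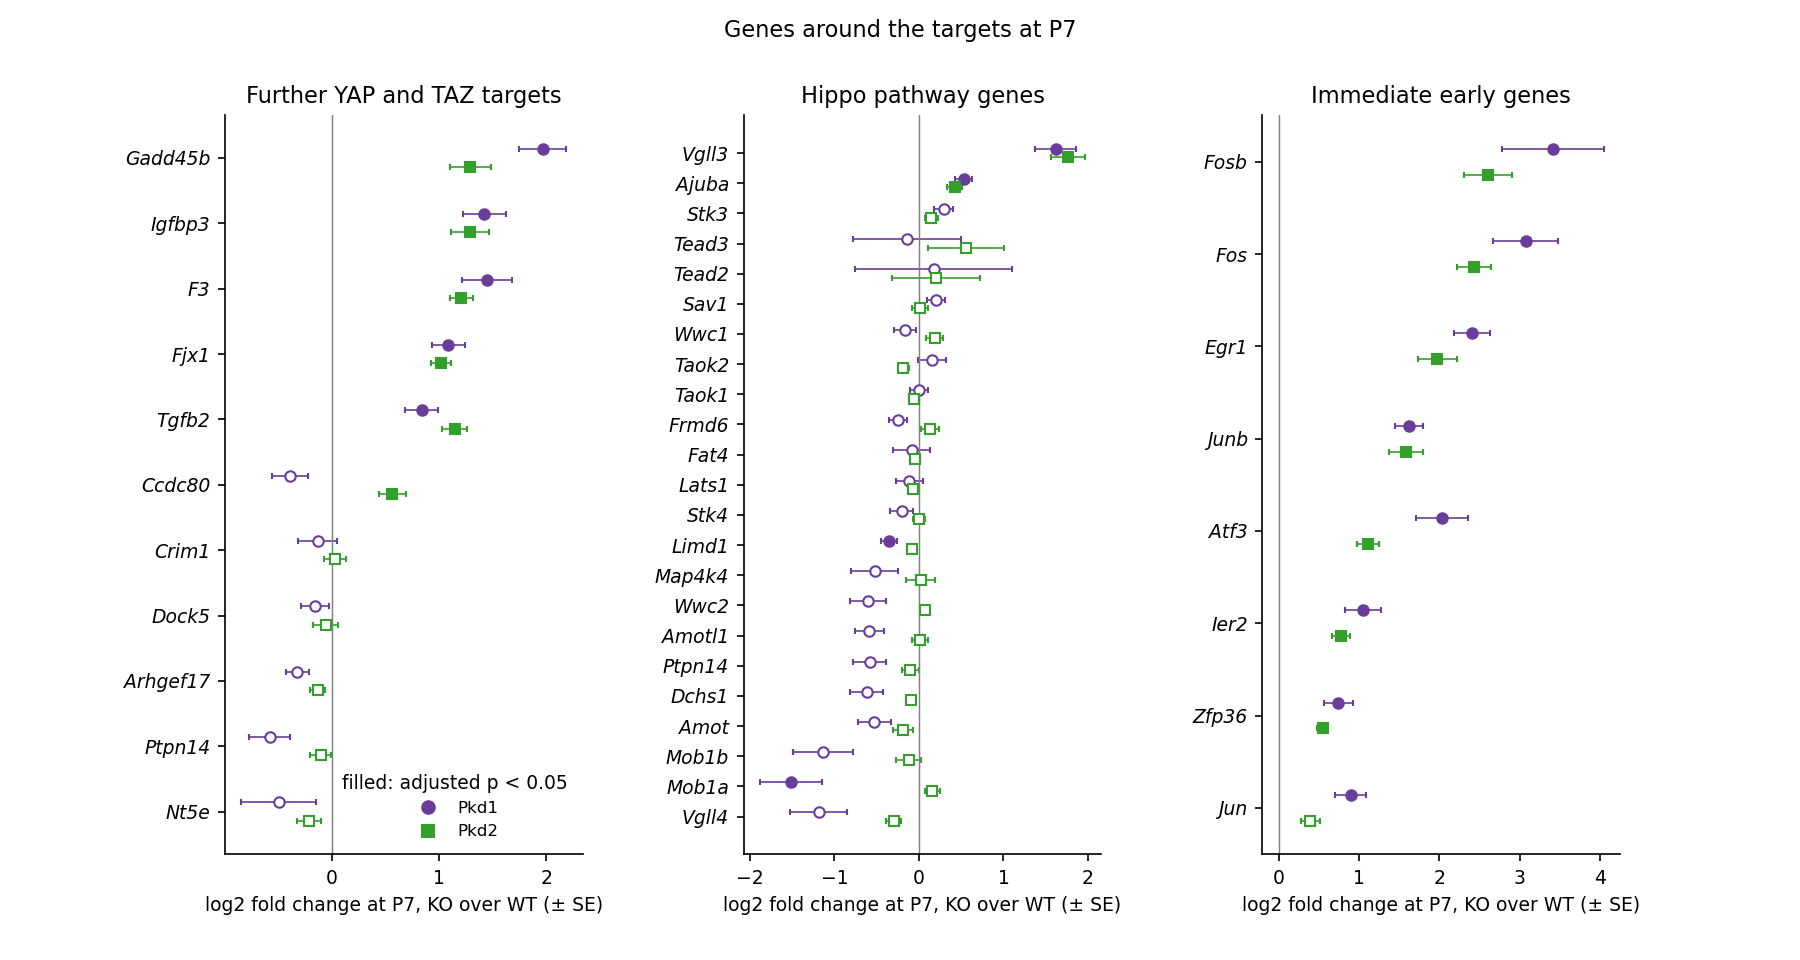
Log2 fold change of KO over WT at P7 with its standard error for further YAP and TAZ targets, Hippo pathway genes and immediate early genes with counts in both models; circles are the Pkd1 model, squares the Pkd2 model, and filled symbols have adjusted p under 0.05. Gadd45b, Igfbp3, F3, Fjx1 and Tgfb2 lie apart from the other targets, Vgll3 lies apart among pathway genes, and all 8 immediate early genes lie above 0.

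Immediate early genes, which respond to growth factors and stress without new protein synthesis, were higher at P7 as was Ccn1, itself known as an immediate early gene. Of Fos, Fosb, Jun, Junb, Egr1, Atf3, Ier2 and Zfp36, 8 of 8 were called higher at P7 in the Pkd1 model and 7 of 8 in the Pkd2 model, beside 6.2% and 7.82% of all transcripts, the exception being Jun (0.40 ± 0.12, adjusted p = 0.0578, edgeR). Fos had 66.4, 83.5 and 69.8 normalized counts in Pkd1 WT against 754, 832 and 268 in Pkd1 KO, and 121, 121 and 117 in Pkd2 WT against 457, 842 and 643 in Pkd2 KO. Egr1 changed by 2.41 ± 0.22 and 1.97 ± 0.24 on the log2 scale. The summed level of the 8 genes ranged from 3435 to 3664 in Pkd1 WT and 7297 to 12304 in Pkd1 KO, and from 4104 to 4426 in Pkd2 WT and 7087 to 10881 in Pkd2 KO. At P3 the log2 fold change was positive for 8 of 8 in the Pkd1 model and 2 of 8 in the Pkd2 model, and none was called. Their median was 0.34 and -0.14, where Ccn1 had 0.56 and 0.27. The part of immediate early genes in the change of Ccn1 and the other members was not tested.

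Marker genes of kidney cell types moved at P7 as well. The 5 smooth muscle and myofibroblast markers (Acta2, Myh11, Tagln, Cnn1 and Des) summed to 16629 to 18131 in Pkd1 WT and 50431 to 53523 in Pkd1 KO, and to 15487 to 17383 in Pkd2 WT and 54476 to 61249 in Pkd2 KO. Of these, 4 of 4 counted genes were called higher in both models, beside 6.2% and 7.82% of all transcripts, and Myh11 was near 0. The 6 collecting duct markers summed to 7338 to 11634 in Pkd1 WT and 2702 to 4644 in Pkd1 KO, and to 7995 to 14093 in Pkd2 WT and 4067 to 5222 in Pkd2 KO, with 3 of 3 counted genes called lower in the Pkd1 and 2 of 3 in the Pkd2 model, beside 7.54% and 6.06% of all transcripts. Aqp2, the water channel that defines principal cells, was lower by log2 fold changes of -2.28 ± 0.56 and -2.38 ± 0.46 (adjusted p = 0.0357 and 0.0151, edgeR), and Avpr2, Scnn1b and Fxyd4 were near 0 in all libraries. The KO to WT ratio of the summed level in the Pkd1 and Pkd2 models was 0.458 and 0.627 for 5 proximal tubule markers (5 of 5 called lower in both models), 0.698 and 0.769 for 4 of podocytes, 1.13 and 1.57 for 3 of nephron progenitors (all near 0), and 1.21 and 1.5 for 2 of proliferation. It was 0.214 and 0.456 for 2 of the thick ascending limb, with Umod near 0 and Slc12a1 called in the Pkd1 model alone. Both genes have several rows, and the summed level was low. Its mean was 68.7 in Pkd1 WT against 14.7 in Pkd1 KO, and 41.2 in Pkd2 WT against 18.8 in Pkd2 KO. For 5 of endothelium the ratio was 0.759 and 0.819, with Pecam1, Emcn and Tek near 0. The 6 fibroblast markers gave 0.926 and 1.31, but Dcn was called lower in both models and Col1a1 and Col1a2 higher in the Pkd2 model. The 5 macrophage markers gave 1.47 and 1.55, with C1qa and C1qb called higher in both models, Csf1r in Pkd2 alone and Cd68 and Adgre1 in neither. The part of such shifts in the levels of Ankrd1, Ccn1 and Ccn2 was not tested.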

How the data were processed

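Total RNA of kidneys was extracted with TRIzol and sequenced. Per the labels and the methods of the study, the authors used CASAVA 1.8.2 and TopHat2 2.1.0 with mm10, and counted reads per RefSeq transcript with HTSeq; the deposited values are raw counts, whole reads per transcript without normalization. Strand settings are not given in the sources used here. All 36 columns were mapped to samples by title.

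Counts were filtered (a minimum of 10 in 3 or more of a model's 18 libraries), scaled by TMM and fitted with edgeR 4.0.16 by quasi-likelihood, with Benjamini-Hochberg adjustment over 12527 (Pkd1), 12633 (Pkd2) or 12343 transcripts (both models). KO and WT were compared per day in 6 libraries, ages and changes of the KO effect in 18, and models in 12. Depth was 7179152 to 15850818 counts per library. The test was run on simulated data first. Alternatives were DESeq2 1.42.0, the exact test, RLE factors, no filter, a fold limit of 2, a sex term, a replicate block, summed rows and leaving out each library.

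The members, gene lists and marker lists were chosen with earlier results of these data known. All members are named; of the further targets and Hippo lists, genes called at P7 in both models and those with the 3 smallest adjusted p in each model are named, besides Ccdc80, Limd1, Arhgef17 and Ptpn14, which were chosen after their values were seen. Likeness names the genes with the 3 highest correlations per member, except 1 gene that is not reported here. Deviations of same-numbered WT and KO libraries correlated by 0.328, 0.182 and 0.492 in the Pkd1 model at P1. At the other days and in the Pkd2 model the correlations ranged from -0.182 to 0.142. Libraries of different numbers were not correlated, so these values cannot decide whether the numbers pair libraries. No replicate pair agreed within sampling noise (chi-square per transcript from 5.15 to 64 over 36 pairs).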

Additional observations from a re-analysis of the deposited data

Results flagged for a closer look

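The KO effect differed between ages for several members (edgeR interaction test, adjusted p under 0.05). From P1 to P7 it rose on the log2 scale by 6.13 for Ankrd1, 2.81 for Ccn1, 2.16 for Ccn2 and 0.68 for Amotl2 in the Pkd1 model, and by 3.24 for Ankrd1, 1.54 for Ccn1 and 1.79 for Ccn2 in the Pkd2 model. From P3 to P7 it rose by 2.92 for Ankrd1 and 1.46 for Ccn2 in the Pkd1 model, and by 1.38 for Ccn1 and 1.82 for Ccn2 in the Pkd2 model. Part of each Pkd1 value from P1 to P7 is the negative difference at P1, and sex was unbalanced in opposite directions at those ages. With a sex term no Pkd1 member passed over either interval. The Pkd1 calls from P3 to P7 were also lost when most single libraries were left out. Groups of 3 libraries were not screened for single outlying libraries.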

How the results depend on the processing

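In the Pkd2 model and over both models, 3 to 4 members were called at P7 under every alternative run, always higher in KO. A sex term took the number of members called in the Pkd1 model to 0 for KO against WT at P7, for WT from P3 to P7 and from P1 to P7, and for the KO effect from P3 to P7 and from P1 to P7. The term rests on 3 libraries, and over both models at P7 on 1. For the comparisons between ages, the number of all transcripts called with the term is not given here. DESeq2 called 2 members at P3 in the Pkd1 model, 2 over both models and 1 for the Pkd1 change from P1 to P3, and the exact test called 2 at P3 in the Pkd1 model. For Pkd1 WT from P3 to P7, no low-count filter and the replicate block each gave 1 member, and the replicate block, which pairs same-numbered libraries, left 2 members for the Pkd2 change from P1 to P7 (Ankrd1 3.236, adjusted p = 0.0827) and changed the number of members called in no other comparison; the fold limit of 2 left 3 members for Pkd2 at P7. Leaving out 1 library gave 0 to 2 members for Pkd1 WT from P3 to P7 and from P1 to P7 and for the Pkd1 effect from P3 to P7, 3 to 4 for the Pkd1 effect from P1 to P7, 2 to 3 for both Pkd2 changes, 3 to 4 for Pkd2 WT from P1 to P7 and 3 to 5 from P3 to P7. The signs of small effects turned: leaving out 1 library gave -0.15 to 0.0207 for Lats2 in the Pkd1 model at P7, -0.0189 to 0.16 for its Pkd1 change from P1 to P7, -0.19 to 0.0907 for Ccn2 in the Pkd2 model at P3, and -0.15 to 0.20 for Ccn2 and -0.0862 to 0.11 for Amotl2 for the Pkd1 minus Pkd2 effect at P7. A sex term gave -0.0235 for Lats2 over both models and -0.21 for the Ccn2 difference between models. Over all transcripts the Pkd1 calls at P7 were 1721, but 224 to 3206 when 1 library was left out (lowest without WT replicate 1, highest without WT replicate 3), 2763 by DESeq2, 748 with a fold limit of 2, 712 with the block, 3882 in the fit of 18 libraries and 6 with the sex term. The Pkd2 calls at P7 were 1753, but 335 with the fold limit and 650 without WT replicate 1, 792 without KO replicate 2 and 802 without KO replicate 3, and those over both models 4082, but 939 with the sex term. The cause of these shifts was not tested. With 3 libraries per group, Ankrd1 at P1 and P3 rests on few counts.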
